A study of Mus musculus with 25 samples.

Results

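The nuclear genes for mitochondrial ribosomal proteins were followed in the hypothalamus of mouse offspring whose dams had received different diets. Members were all symbols made of Mrpl or Mrps, a number and at most one letter from a to c, with a mean normalized count of 10 or more in a comparison table. All 77 symbols of this form among the 24421 genes passed in each of the 4 tables, 48 as large-subunit (Mrpl) and 29 as small-subunit (Mrps) genes by symbol. The lowest mean normalized count in the authors' deposited tables was 76.4, for Mrpl23 in RD-weaned males, so the low-value filter removed no member.

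The study measured stranded poly(A) RNA in 25 hypothalami of wild-type C57BL/6J mice aged 3 months. Dams were fed regular chow (RD) or a hypercaloric diet (HCD) with 52% fat and much sucrose, beginning 1 month ahead of mating and lasting through pregnancy and nursing. Pups were weaned to HCD or RD. Groups are written as maternal diet, then offspring diet, then sex. The group RD-RD Male had 4 samples, and RD-RD Female, RD-HCD Male, RD-HCD Female, HCD-RD Male, HCD-RD Female, HCD-HCD Male and HCD-HCD Female had 3 samples each. For RD-weaned males the labels list 7 samples, while the files of single libraries, not used here, have 6 columns, so the number behind the values and SEs of that table is uncertain. The 4 comparisons set HCD-dam against RD-dam offspring within HCD-weaned males, HCD-weaned females, RD-weaned males and RD-weaned females, and they share no sample. They ask how the mother's diet relates to the offspring's hypothalamic RNA when sex and the offspring's own diet are held fixed. Whether samples of one group had different mothers is not in the labels, and p-values therefore cover only the spread among the samples used.

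A positive log2 fold change is read here as higher in offspring of HCD dams. Which group is the numerator is not stated for any comparison. For HCD-weaned offspring the reading rests on the labels, which name the RD-dam group as control. For RD-weaned offspring it rests only on which group is written first. If a reading is wrong, all signs of that table turn together. Turned signs are given below for the RD-weaned tables only. No column of single libraries could be tied to a sample, so values per animal are not shown and each result is the authors' deposited value with its standard error (SE). The deposited fold changes look shrunken toward 0, as the largest SE of any gene was 0.33, 0.45, 0.45 and 0.30 in the order above. Their sizes may thus be understated, and perhaps not to the same degree in each comparison. Calls are those with an adjusted p under 0.05, by the Wald test in the authors' deposited table, adjusted over all genes of that table.

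Mitochondria keep their own ribosome, the mitoribosome, which translates the few messenger RNAs of the mitochondrial genome into membrane subunits of the respiratory chain and ATP synthase. Its RNA is encoded in the mitochondrion, while its proteins are encoded in the nucleus, made in the cytosol and imported. Some of these proteins have counterparts in the bacterial ribosome and others are found only in mitochondria. Neurons depend heavily on the respiratory chain for the energy of firing and transmission. No mitochondrially encoded symbol occurs in the tables used, so the products of this ribosome were not analysed here.

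Maternal HCD went with small positive fold changes of most mitoribosomal genes in HCD-weaned offspring of both sexes, with mostly negative ones in RD-weaned males, and with values around 0 in RD-weaned females. In HCD-weaned males 72 of 77 members were positive, with a median log2 fold change of 0.27 (1.21-fold higher) in the authors' deposited table. In HCD-weaned females 68 of 77 were positive and the median was 0.29 (1.22-fold higher) in the authors' deposited table. Of the 72 members with an adjusted p in RD-weaned males, 56 were negative and the median was -0.24 (1.19-fold lower) in the authors' deposited table. Of the 76 such members in RD-weaned females, 52 were positive and the median was 0.04 (1.03-fold higher) in the authors' deposited table. Over all genes tested, the medians in the authors' deposited tables were -0.01, 0.04, 4.75e-05 and 0.01 in the same order, and 48.9%, 54.4%, 50.02% and 50.9% of genes were positive. With the trend of fold change over transcript length and GC content removed, 57 of 77 members were positive in each HCD-weaned comparison, and the medians were 0.11 in males and 0.23 in females. In RD-weaned males only 12920 of 14474 genes with a mean of 10 or more had an adjusted p. In RD-weaned females 15028 of 15370 did, and in HCD-weaned offspring all did. Summed mean counts were 1.54e+07 in RD-weaned males, against 2.27e+07 to 2.70e+07 in the other comparisons.

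**Figure D1:**
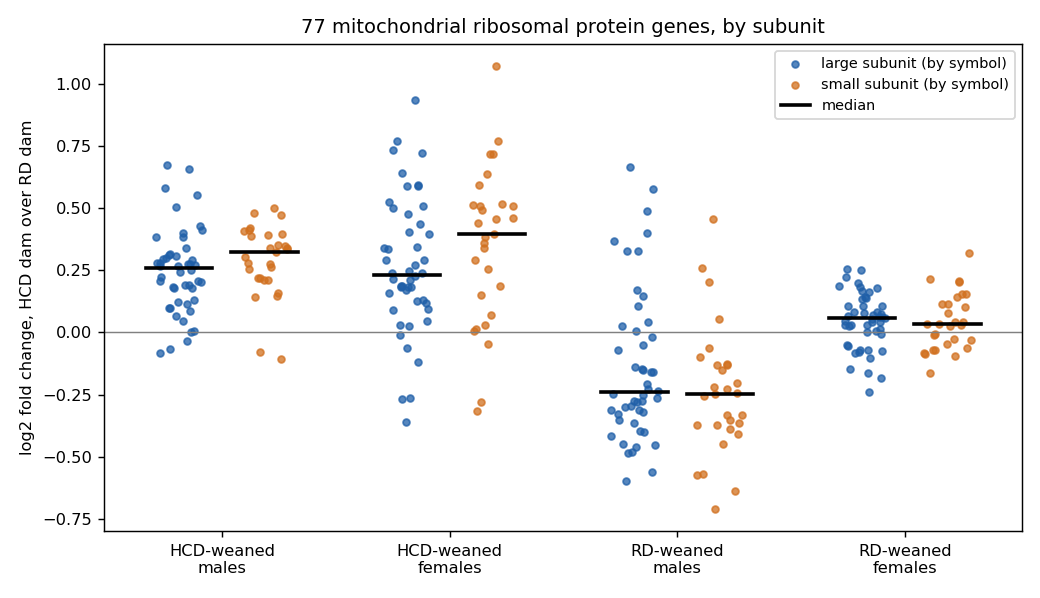
Each point is 1 of the 77 mitochondrial ribosomal protein genes, blue for large-subunit and orange for small-subunit symbols. The vertical axis is the log2 fold change of HCD-dam over RD-dam offspring in the authors' deposited tables, and black bars mark subunit medians. Points of both subunits lie mostly above 0 in HCD-weaned offspring, mostly below 0 in RD-weaned males and around 0 in RD-weaned females. The largest value is Mrps9 in HCD-weaned females, at 1.07.

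Single members seldom passed a test. The authors' deposited tables called 0 members in HCD-weaned males, against 0.163% of all genes tested there. In HCD-weaned females 1 of 77 members was called, Mrps9, against 1.52% of genes in the authors' deposited table. The authors' deposited tables called 0 members in RD-weaned males, against 0.0851% of genes, and 0 in RD-weaned females, against 0.346% of genes. At an unadjusted p under 0.05 the members numbered 4 (8.14% of all genes), 10 (13.3%), 1 (4.3%) and 0 (6.16%) in the same order of comparisons in the authors' deposited tables. The share of members past either threshold was thus near or below the background, while their direction was not evenly split. The 95% half-width of the median member's fold change was 0.55, 0.59, 0.85 and 0.48 on the log2 scale, which is the precision of a single member and not of the list.

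Mrps9, the counterpart of the bacterial small-subunit protein whose tail reaches the tRNA in the peptidyl site, was the called member. It rose by 1.07 on the log2 scale in HCD-weaned females (SE 0.31, 95% interval 0.47 to 1.68, adjusted p = 0.0408 in the authors' deposited table by DESeq's Wald test), which is 2.10-fold. In HCD-weaned males the authors' deposited table gave 0.50 on that scale (SE 0.27, adjusted p = 0.643 by DESeq's Wald test). The authors' deposited table gave -0.23 (SE 0.44) in RD-weaned males, with no p, and 0.22 (SE 0.23) in RD-weaned females. The sign was thus positive in 3 of 4 comparisons, and the 4 values spanned 1.30, the widest range of any member in the authors' deposited tables. From the authors' deposited values by DESeq, its call in HCD-weaned females was lost with fold changes centred on their median (adjusted p = 0.0557), with the length and GC trend over all genes removed (0.106) and with the Wald statistic divided by its robust spread (0.151). Over all alternatives to DESeq's adjusted p that of Mrps9 there lay between 0.0325 and 0.151.

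To show the start sites of the members with the largest test statistics, promoters were taken for the called member and for the next 3 by mean absolute Wald statistic, Mrpl43, Mrpl2 and Mrpl55. Mrps11 was added after its values were seen, because its start lies back to back with that of another member. Sequences are RefSeq's for GRCm38.p6, from 250 bases before to 50 after the first listed start, 5′ to 3′ on the gene's own strand. The windows are chr1:42850983-42851282 (plus strand) for Mrps9, chr19:45006393-45006692 (minus) for Mrpl43, chr17:46645971-46646270 (plus) for Mrpl2, chr11:59202236-59202535 (plus) for Mrpl55 and chr7:78782881-78783180 (plus) for Mrps11. Capitals mark matches on either strand to the motifs of ETS factors such as GABPA (CCGGAAG), nuclear respiratory factor NRF1 (CGCANGCG), YY1 (AANATGGCG) and SP1-like factors (GGGCGG).
Mrps9: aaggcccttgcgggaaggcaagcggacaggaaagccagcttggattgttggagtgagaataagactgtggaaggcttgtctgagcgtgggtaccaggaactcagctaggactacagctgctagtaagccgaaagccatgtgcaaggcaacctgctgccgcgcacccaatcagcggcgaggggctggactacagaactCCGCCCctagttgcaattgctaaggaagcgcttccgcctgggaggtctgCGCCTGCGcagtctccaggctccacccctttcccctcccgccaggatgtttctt
Mrpl43: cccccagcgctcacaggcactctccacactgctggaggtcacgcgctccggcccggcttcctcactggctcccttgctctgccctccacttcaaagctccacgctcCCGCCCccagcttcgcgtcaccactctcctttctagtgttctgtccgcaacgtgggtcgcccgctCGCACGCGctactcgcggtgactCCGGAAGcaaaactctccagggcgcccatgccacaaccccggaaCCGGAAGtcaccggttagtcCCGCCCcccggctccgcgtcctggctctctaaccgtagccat
Mrpl2: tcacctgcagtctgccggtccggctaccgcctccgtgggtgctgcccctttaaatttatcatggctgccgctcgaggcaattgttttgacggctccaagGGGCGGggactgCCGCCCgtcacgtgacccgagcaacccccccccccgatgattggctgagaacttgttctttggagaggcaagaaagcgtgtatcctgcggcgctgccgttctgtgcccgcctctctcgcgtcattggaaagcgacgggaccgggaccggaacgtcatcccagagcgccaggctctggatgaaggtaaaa
Mrpl55: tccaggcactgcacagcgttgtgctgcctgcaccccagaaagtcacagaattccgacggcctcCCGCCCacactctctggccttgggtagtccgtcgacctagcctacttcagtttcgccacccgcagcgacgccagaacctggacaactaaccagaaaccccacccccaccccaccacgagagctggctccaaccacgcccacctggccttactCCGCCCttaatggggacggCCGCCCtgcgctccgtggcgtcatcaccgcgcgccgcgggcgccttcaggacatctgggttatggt
Mrps11: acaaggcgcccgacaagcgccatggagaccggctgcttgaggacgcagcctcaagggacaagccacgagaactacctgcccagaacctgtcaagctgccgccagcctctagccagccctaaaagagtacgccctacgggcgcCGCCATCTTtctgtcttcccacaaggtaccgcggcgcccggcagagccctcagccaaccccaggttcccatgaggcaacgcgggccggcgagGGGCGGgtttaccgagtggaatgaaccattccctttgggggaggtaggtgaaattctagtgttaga

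The Mrps9 promoter holds an NRF1 match that begins 4 bases before the start and an SP1 match 53 bases before it. The Mrpl43 promoter holds ETS matches 56 and 12 bases before the start and an NRF1 match 79 bases before it. Mrpl2 and Mrpl55 hold SP1 matches alone, and Mrps11 holds a YY1 match 108 bases before its start. No searched motif is common to all 5 except the SP1 letters, which are frequent in promoters of every kind. A match is a run of letters and shows no binding.

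Promoter entries were present for 68 of 77 members and for 11809 of the 15658 genes tested in any table. The ETS letters occurred in 24 of 68 member promoters (35.3%) and in 15.8% of all tested promoters of the same length. The NRF1 letters occurred in 20 of 68 (29.4%, against 15.97%) and the YY1 letters in 10 of 68 (14.7%, against 4.598%). GABPA and NRF1 are known regulators of nuclear genes for mitochondrial proteins. The SP1 letters were in 34 of 68 (50%, against 62.1%), and the letters of the estrogen-related receptors (AAGGTCA) in 4 of 68 (5.88%, against 3.31%). Some matches of different motifs can overlap, and each motif was counted on its own.

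Members with and without the ETS letters were set side by side. Their median log2 fold changes in the authors' deposited tables were 0.33 with and 0.26 without in HCD-weaned males, and 0.38 with and 0.20 without in HCD-weaned females. For males weaned to RD the authors' deposited table gave -0.23 with and -0.20 without, and in RD-weaned females 0.07 with and 0.03 without. The member median with the ETS letters was farther from 0 in each table, and these gaps were not tested. Medians with and without these letters were also taken over all tested genes with a promoter entry. In the same order they were 0.06 and -0.02, 0.10 and 0.03, -0.02 and 0.002, and 0.03 and 0.001. For members with and without the NRF1 letters they were 0.28 and 0.27, 0.19 and 0.34, -0.15 and -0.24, and 0.05 and 0.04.

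The large subunit holds the peptidyl transferase centre, where the peptide bond forms, and the small subunit holds the decoding site that reads the messenger RNA. The protein genes of both subunits had the same sign of median in each comparison. In HCD-weaned males the median log2 fold change was 0.26 for large (45 of 48 positive) and 0.32 for small subunit genes (27 of 29 positive) in the authors' deposited table. In HCD-weaned females it was 0.23 for large (42 of 48 positive) and 0.40 for small subunit genes (26 of 29 positive) in the authors' deposited table. RD-weaned males had -0.24 for large (34 of 46 negative) and -0.25 for small subunit genes (22 of 26 negative) in the authors' deposited table. RD-weaned females had 0.06 for large (35 of 48 positive) and 0.03 for small subunit genes (17 of 28 positive) in the authors' deposited table.

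The difference of the subunit medians, large minus small, was -0.06, -0.17, 0.01 and 0.02 on the log2 scale in the same order. These differences of medians were not tested. The gap of -0.17 in HCD-weaned females was -0.03 once the length and GC trend was removed, and -0.08 with means in place of medians. Symbols and structure disagree for a few members: the products of Mrps30 and Mrps18a sit in the large subunit, and that of Mrps36 is now known as a part of the 2-oxoglutarate dehydrogenase complex. With those placed by structure the difference was -0.07, -0.18, -0.01 and 0.02.

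Members with a bacterial counterpart and members found only in mitochondria were also set side by side. In HCD-weaned males the medians were 0.27 and 0.25 for bacterial-type and mitochondria-specific large subunit genes, and 0.28 and 0.34 for the same classes of the small subunit, in the authors' deposited table. In HCD-weaned females they were 0.29 and 0.15 for the large and 0.45 and 0.38 for the small subunit in the authors' deposited table. In RD-weaned males the authors' deposited table gave -0.23 and -0.28 for the large and -0.29 and -0.13 for the small subunit. RD-weaned females had 0.06 and 0.05 for the large and 0.04 and 0.03 for the small subunit in the authors' deposited table. Neither class was farther from 0 in all 4 comparisons.

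Among large-subunit proteins of the catalytic core and the exit tunnel, Mrpl2 lies near the peptidyl transferase centre in the bacterial counterpart. Its log2 fold change was 0.68 (SE 0.27, unadjusted p = 0.0135), 0.73 (SE 0.28, p = 0.00866), 0.58 (SE 0.30) and 0.03 (SE 0.24) in the authors' deposited tables, in the order above. Mrpl22, whose bacterial counterpart lines the narrow part of the tunnel, had 0.34 (SE 0.28), 0.93 (SE 0.40, unadjusted p = 0.0211), -0.32 (SE 0.44) and -0.08 (SE 0.25) in the authors' deposited tables. Mrpl4, also of the tunnel wall, had 0.40, 0.16, -0.33 and 0.22 in the authors' deposited tables. Mrpl2 was thus low in RD-weaned females alone, while Mrpl22 passed an unadjusted p of 0.05 in 1 comparison, HCD-weaned females.

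Mrpl23, near the tunnel exit in bacteria, had 0.66 (SE 0.29), 0.18 (SE 0.38), 0.67 (SE 0.38) and -0.24 (SE 0.28) in the authors' deposited tables. It was the lowest member per kilobase of its longest transcript, though Mrps36 had a lower mean normalized count in 3 of the 4 authors' deposited tables. It has a named pseudogene, so some of its reads may be shared with a copy. Mrpl45, which helps place the mitoribosome at the inner membrane, had 0.10, 0.03, 0.17 and 0.11 in the authors' deposited tables. Those 4 values are all positive and all below their SE.

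Among other members with bacterial counterparts, Mrpl1 belongs to the stalk beside the tRNA exit site, and had 0.21, 0.24, 0.15 and -0.18 in the authors' deposited tables. Mrpl9 had 0.28, 0.77 (SE 0.34), 0.01 and -0.07 in the authors' deposited tables. Mrpl18 had 0.38, 0.27, 0.37 and 0.07, and Mrpl13 0.28, 0.13, -0.35 and -0.16, in the authors' deposited tables. Only the HCD-weaned female value of Mrpl9 among these 16 had an unadjusted p under 0.05 in the authors' deposited tables.

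Mrpl32, whose maturation by a mitochondrial protease is a known step of mitoribosome assembly, ran against most members. It had -0.07 (SE 0.28), -0.36 (SE 0.36), 0.40 (SE 0.42) and -0.08 (SE 0.25) in the authors' deposited tables, the reverse of the common pattern in the first 3. Mrpl34 had 0.05, 0.44, -0.23 and 0.25, and Mrpl55 0.55 (SE 0.27), 0.72 (SE 0.26, unadjusted p = 0.00544), 0.04 (SE 0.41) and 0.17 (SE 0.26), in the authors' deposited tables. No interval of Mrpl32 excluded 0.

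Of the large-subunit proteins found only in mitochondria, Mrpl43 had 0.58 (SE 0.26), 0.64 (SE 0.24, unadjusted p = 0.00658), 0.49 (SE 0.30) and 0.25 (SE 0.22) in the authors' deposited tables. Its gene overlaps Twnk on the opposite strand, and Twnk, the mitochondrial DNA helicase, had 0.19, 0.36, 0.03 and 0.32 in the authors' deposited tables. Mrpl40 had -0.08, -0.27, -0.26 and 0.03, and Mrpl42 0.43, 0.12, 0.33 and 0.001, in the authors' deposited tables. Mrpl52 had 0.13, 0.10, -0.60 (SE 0.45) and 0.03 in the authors' deposited tables. Mrps30, a large-subunit protein despite its symbol, had 0.34, 0.38, -0.58 (SE 0.41) and -0.07 in the authors' deposited tables. Mrpl43 was positive in all 4 comparisons, and its intervals excluded 0 in both HCD-weaned comparisons.

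Mrpl38 was the single member with an unadjusted p under 0.05 in RD-weaned males and is named here after its values were seen. It had -0.56 (SE 0.20, unadjusted p = 0.0046, adjusted p = 0.485) there in the authors' deposited table.

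Among small-subunit proteins of the decoding region, Mrps12, whose bacterial counterpart sits at the decoding centre and bears streptomycin resistance mutations, had 0.48, 0.46, -0.35 and 0.32 in the authors' deposited tables. Mrps5, whose bacterial counterpart affects decoding accuracy, had -0.08, 0.07, -0.15 and -0.09 in the authors' deposited tables. Mrps11, of the platform that carries the messenger RNA exit, had 0.40 (SE 0.28), 0.77 (SE 0.38), 0.46 (SE 0.43) and 0.16 (SE 0.25) in the authors' deposited tables. The signs of Mrps12 followed the commonest pattern, those of Mrps5 were mixed and those of Mrps11 were all positive.

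Mrps2 was the member with negative values in all 4 comparisons: -0.11 (SE 0.25), -0.28 (SE 0.28), -0.37 (SE 0.28) and -0.06 (SE 0.20) in the authors' deposited tables. Mrps10, a head protein, had 0.14, 0.34, -0.25 and -0.16 in the authors' deposited tables. Mrps21 had 0.39, 0.25, -0.71 (SE 0.45) and 0.10 in the authors' deposited tables, and its value in RD-weaned males was the lowest of any member in any table. Of the small-subunit proteins found only in mitochondria, Mrps31 had 0.16, 0.59, -0.64 (SE 0.43) and -0.03, and Mrps26 0.34, 0.51, 0.06 and 0.21, in the authors' deposited tables. Mrps18b, one of a trio of proteins related to the bacterial S18, had 0.32, -0.32, 0.26 and 0.03 in the authors' deposited tables. None of these values had an unadjusted p under 0.05.

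**Figure D2:**
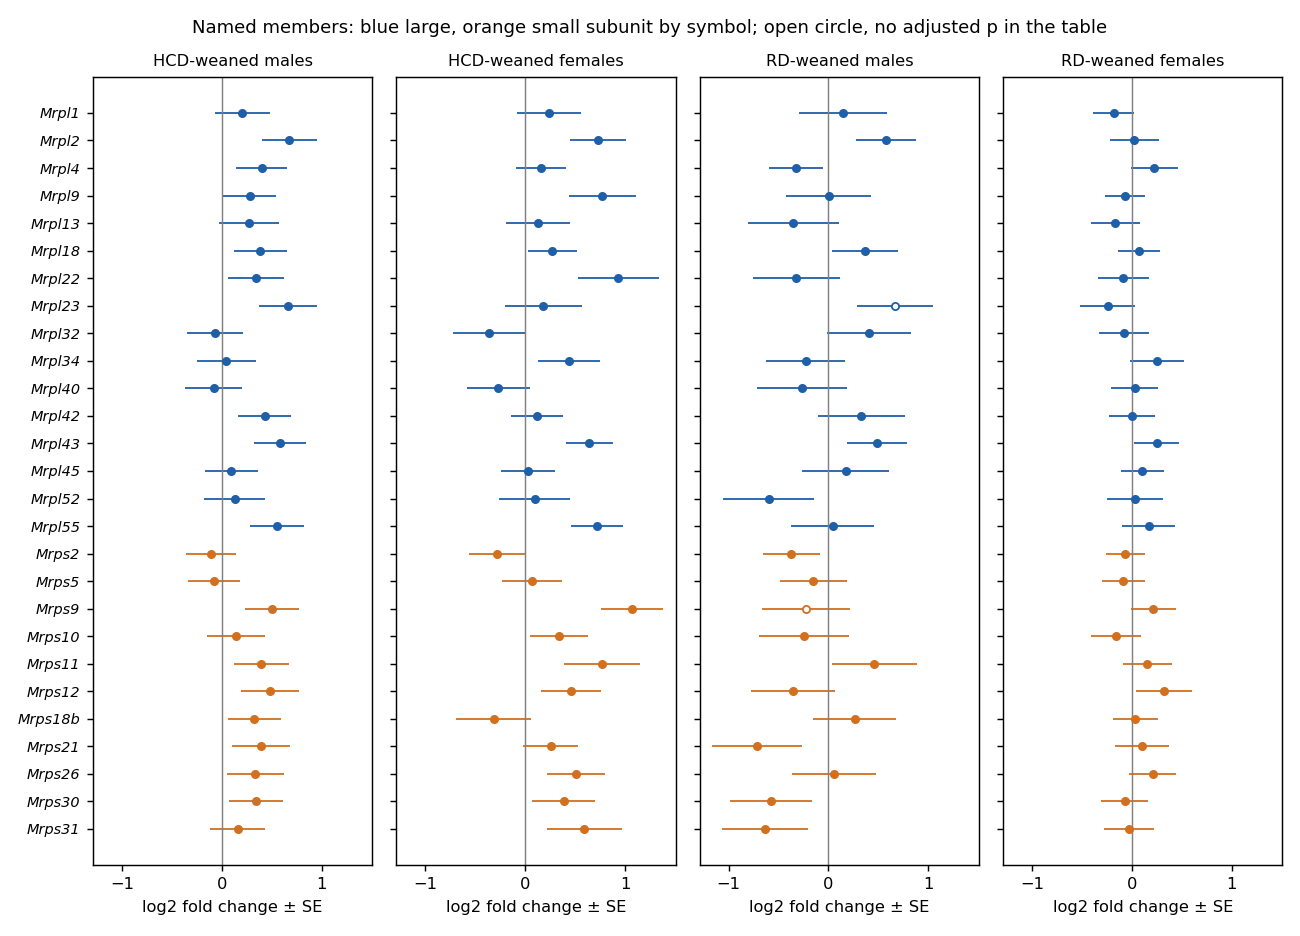
The 27 members named by rule (rows) are drawn in 4 panels, 1 for each comparison, with blue for large and orange for small subunit by symbol. Points are log2 fold changes of HCD-dam over RD-dam offspring in the authors' deposited tables and bars are 1 SE to each side. Open circles mark values with no adjusted p. Mrps9 in HCD-weaned females stands farthest right at 1.07, and Mrps21 in RD-weaned males farthest left at -0.71.

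The signs over the 4 comparisons describe every member. The commonest pattern, positive in both HCD-weaned comparisons and in RD-weaned females and negative in RD-weaned males, held 41 members, 27 large and 14 small. They were Mrpl3, Mrpl4, Mrpl11, Mrpl12, Mrpl14 to Mrpl17, Mrpl20, Mrpl24, Mrpl27, Mrpl28, Mrpl30, Mrpl33 to Mrpl38, Mrpl46 to Mrpl49, Mrpl51 to Mrpl53, Mrpl57, Mrps7, Mrps9, Mrps12, Mrps14 to Mrps17, Mrps18a, Mrps21, Mrps23, Mrps24, Mrps27, Mrps34 and Mrps35. Another 13 were positive in both HCD-weaned comparisons and negative in both RD-weaned ones: Mrpl13, Mrpl19, Mrpl22, Mrpl41, Mrpl54, Mrps6, Mrps10, Mrps18c, Mrps25, Mrps28, Mrps30, Mrps31 and Mrps33. All 4 values were positive for 8 members, Mrpl2, Mrpl18, Mrpl42, Mrpl43, Mrpl45, Mrpl55, Mrps11 and Mrps26. A further 5, Mrpl1, Mrpl9, Mrpl21, Mrpl23 and Mrps22, were positive in all but RD-weaned females. The remaining 10 members, Mrpl10, Mrpl32, Mrpl39, Mrpl40, Mrpl44, Mrpl50, Mrps2, Mrps5, Mrps18b and Mrps36, had other combinations. Most single values lie within 1 SE of 0, so a pattern of signs of one member is a description only. The counts also depend on the reading of the RD-weaned tables: members positive in all 4 would number 41 with the table of males turned, 5 with that of females and 13 with both, and those negative in all 4 would number 2, 1 and 0.

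Whether the fold changes differed between comparisons was tested gene by gene, from the deposited fold changes and SEs, with Benjamini-Hochberg adjustment over all genes. In HCD-weaned females minus HCD-weaned males 0 of 77 members passed and 0% of all genes did, with a median member difference of 0.04 (median SE of a single member's difference 0.42). In RD-weaned females minus RD-weaned males 0 of 71 members passed, against 0.00791% of genes, with a median difference of 0.28 (median SE 0.49) and 56 of 71 positive. With the table of RD-weaned males turned, it was -0.18 and 21 of 71 were positive. In HCD-weaned males minus RD-weaned males 0 of 72 passed, against 0.00775% of genes, with a median difference of 0.44 (median SE 0.51) and 67 of 72 positive. With the sign of the RD-weaned table turned, that median was 0.03 and 39 of 72 were positive. In HCD-weaned females minus RD-weaned females 0 of 76 passed, against 0.00685% of genes, with a median difference of 0.22 (median SE 0.39) and 63 of 76 positive. Turned likewise, that median was 0.35 and 64 of 76 were positive. The medians of males weaned to HCD and to RD, 0.27 and -0.24 (0.24 if that table is turned), were therefore not shown to differ for any single member.

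At an unadjusted p under 0.05, this test of a difference took 0 members (0.642% of genes), 1 member (3.05%), 3 members (3.84%) and 3 members (5%) in the same order. The 3 between HCD-weaned and RD-weaned males were Mrps21 (difference 1.10, SE 0.54), Mrpl37 (0.76, SE 0.36) and Mrpl38 (0.75, SE 0.33). The 3 between HCD-weaned and RD-weaned females were Mrpl22 (1.02, SE 0.48), Mrps9 (0.86, SE 0.38) and Mrpl9 (0.84, SE 0.39). Mrpl38 was also the 1 member between RD-weaned females and males (0.62, SE 0.32). Those of these members that the rule did not take, Mrpl37 and Mrpl38, are named after their values were seen. Since the deposited fold changes look shrunken toward 0, this test can miss differences, and shrinkage of unlike degree between tables could also shift them. With the sign of an RD-weaned table turned it passed 0 members, against 0.111% of genes between RD-weaned females and males (males turned), 0.031% between males and 1.27% between females of different weaning diet.

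Across members, the log2 fold changes of HCD-weaned males and HCD-weaned females had a Spearman rho of 0.44 (n = 77) and the same sign for 71 members in the authors' deposited tables. Between HCD-weaned and RD-weaned males rho was 0.10, and between RD-weaned males and RD-weaned females -0.06, over the same members. These members share transcript length and base composition between tables, so rho is a description. Within a table the members were also close to each other: their SD was 0.16, 0.29, 0.28 and 0.11 in the authors' deposited tables, at or below the median SE of a single member, which was 0.28, 0.30, 0.43 and 0.25. The SE of a difference between members of the same table was not computed, so the order of members within a table is a description.

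Transcript length moved with the fold changes of all genes. The longest GENCODE M21 transcript of members had a median of 1849 bases, against 3372 bases over genes with a mean count of 10 or more. Over all genes tested the Wald statistic and this length had a Spearman rho of -0.55 (HCD-weaned males), -0.44 (HCD-weaned females), 0.09 (males weaned to RD) and -0.22 (females weaned to RD). With the trend of length and GC content over all genes removed, the members' median log2 fold change was that given above for HCD-weaned offspring. It went from -0.24 to -0.18 in RD-weaned males (19 of 72 positive) and from 0.04 to 0.02 in RD-weaned females (45 of 76 positive). The medians kept their signs, and that of HCD-weaned males shrank by more than the others in log2 units. What part RNA quality has in this trend was not tested. Among the members themselves, length and fold change had a Spearman rho of -0.09, -0.12, 0.05 and -0.12.

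**Figure D3:**
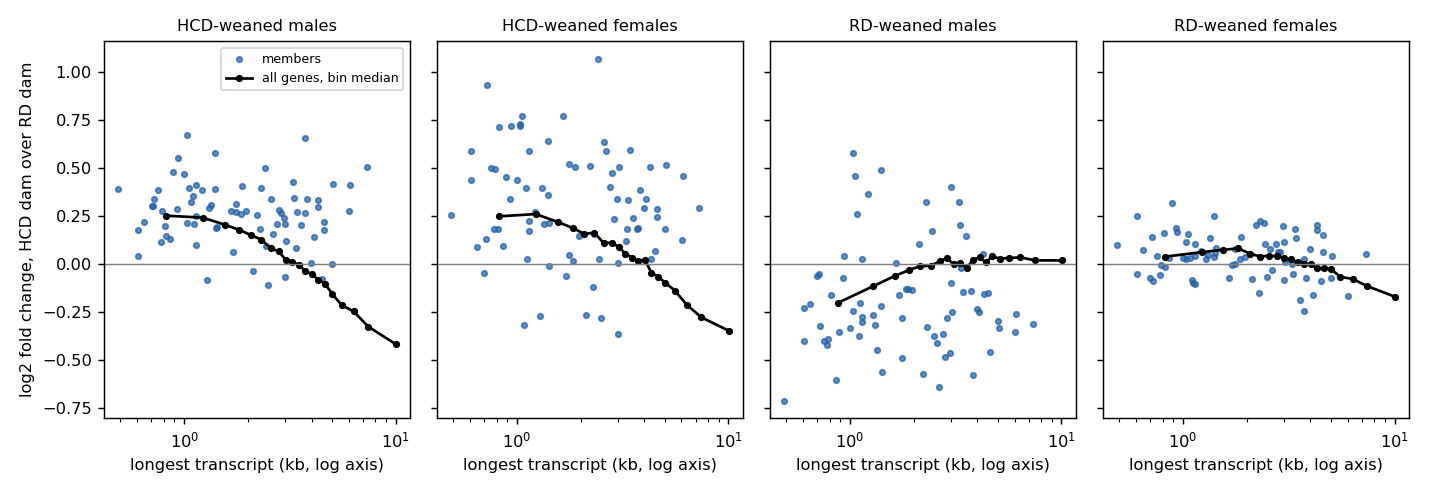
The horizontal axis is the longest transcript in kilobases (log axis), and the vertical axis is the log2 fold change of HCD-dam over RD-dam offspring, with 1 panel for each comparison. Blue points are members, and the black line joins medians of all genes in bins of equal size. In HCD-weaned males the line falls from 0.25 in the bin of shortest transcripts to below 0 in the longest, and members lie mostly above it. In RD-weaned males most members lie below the line.

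Levels of members were compared per length, as the mean normalized count per kilobase of longest transcript and scaled so that the summed means of each table come to the same total. The lowest level was that of Mrpl23, at 3.34, 4.27, 1.33 and 3.27, and the highest that of Mrpl41, at 174, 218, 143 and 226, in the order of comparisons above, from means in the authors' deposited tables. Mrpl41 was thus 51.9, 50.9, 107 and 69.1 times as high as Mrpl23. These ratios depend on the longest annotated transcript, which need not be the expressed one. Not divided by length, the mean normalized counts in HCD-weaned males were 3630 for Mrpl41 and 335 for Mrpl23. The median level was 28.4, 31.4, 23.3 and 32.0, and the small-subunit median was below the large-subunit median in each table (24.98 against 32.8 in HCD-weaned males). The order of levels in HCD-weaned males had a Spearman rho of 0.995 with HCD-weaned females, 0.983 with RD-weaned males and 0.992 with RD-weaned females (n = 77). Genes whose proteins enter one ribosome thus had levels per longest transcript that ranged widely, in nearly the same order in each table. Each level is a mean over both maternal diets, and its spread over samples is not shown.

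**Figure D4:**
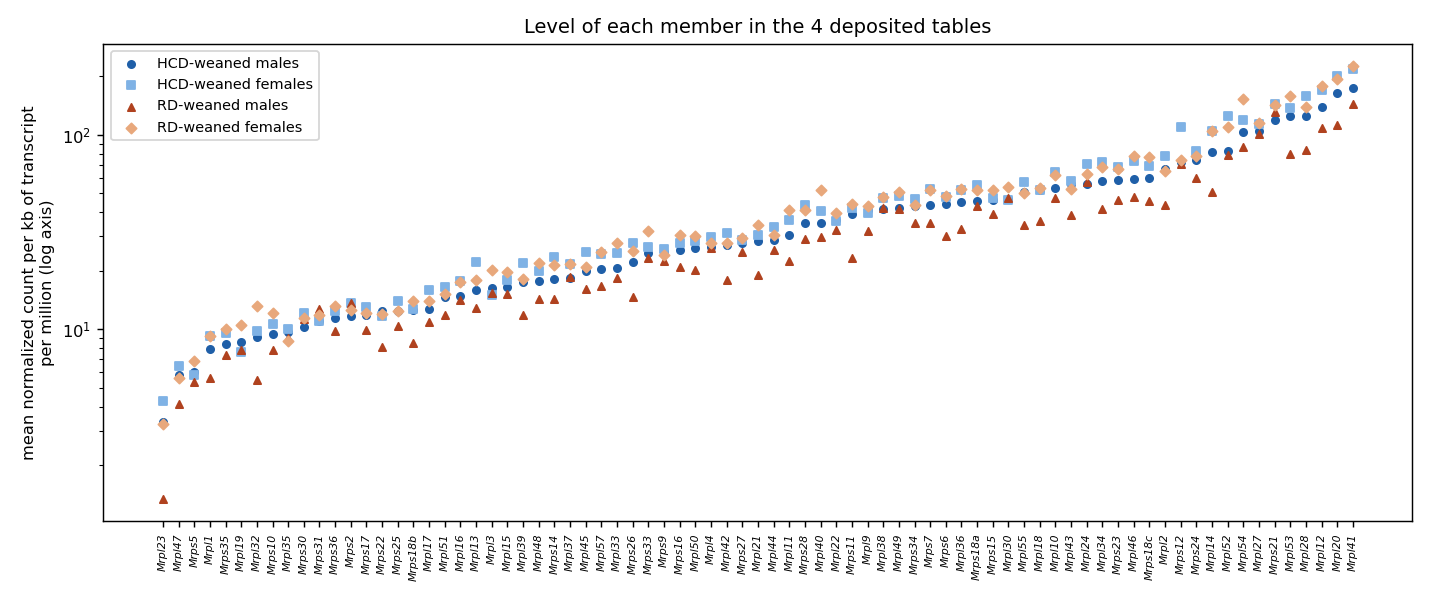
The 77 members are ordered along the horizontal axis by their level in HCD-weaned males, and the vertical axis (log scale) is the mean normalized count per kilobase of longest transcript, scaled to equal table totals. Each of the 4 symbols is 1 deposited table. All tables run from Mrpl23 at the left to Mrpl41 at the right in nearly the same order, with RD-weaned males lowest for most members.

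Some members share start regions or overlap other genes. The members lie on 17 chromosomes, with 10 of them on chromosome 11. In GENCODE M21, 35 of 77 members overlap a gene on the opposite strand and 13 a gene on the same strand. The library kit keeps strand, but whether counting used it is not given in the sources used here, so values of overlapping genes are uncertain. Of the 68 members with a promoter entry, 26 (38.2%) had the start of a gene on the opposite strand within 1000 bases and facing away, against 17.0% of all tested genes.

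Mrpl46 and Mrps11 start 42 bases apart on opposite strands of chromosome 7, and their annotations overlap. Their log2 fold changes were 0.25 and 0.40 in HCD-weaned males, 0.17 and 0.77 in HCD-weaned females, -0.28 and 0.46 for males weaned to RD and 0.04 and 0.16 for females weaned to RD, in the authors' deposited tables. This large-subunit and small-subunit pair thus had opposite signs in RD-weaned males, where Mrpl46 was below its SE of 0.45 and Mrps11 slightly above its SE of 0.43. Over all partners at such shared starts the median was 0.10, 0.17, -0.11 and 0.03 in the authors' deposited tables, with 0 called in each. Member and partner had the same sign in 14 of 24, 16 of 23, 12 of 22 and 14 of 24 entries with values. Mrpl46 and Mrps11 are each a member and the other's partner, so their pair enters these medians and counts from both sides. No such share of equal signs was taken over all genes. Mrpl47 and Ndufb5, a subunit of respiratory complex I, start 308 bases apart, and Mrps12 and Sars2, the mitochondrial seryl-tRNA synthetase, 147 bases apart.

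Other genes of the mitoribosome and of mitochondrial translation were followed in lists. Mitoribosomal proteins with other symbols, among them Dap3 and Ptcd3, had 5 of 6 positive (median 0.33), 6 of 6 (0.24), 0 of 5 (-0.34) and 5 of 6 (0.02) in the same order of comparisons in the authors' deposited tables. Mitochondrial translation factors had 12 of 15 positive (median 0.26), 14 of 15 (0.28), 7 of 15 (-0.00) and 2 of 15 (-0.10) in the authors' deposited tables. Assembly and rRNA modification factors had 19 of 24 (0.24), 23 of 24 (0.31), 11 of 21 (0.06) and 16 of 24 (0.07) in the authors' deposited tables. Both factor lists were thus positive on balance in HCD-weaned offspring, and their medians in RD-weaned males lay near 0 rather than at the -0.24 of the members. None of these lists had a called gene.

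Mitochondrial aminoacyl-tRNA synthetases, which charge the tRNAs of the organelle, had 12 of 17 positive (median 0.09), 9 of 17 (0.06), 7 of 15 (-0.11) and 8 of 16 (-0.01) in the authors' deposited tables. Genes of mitochondrial DNA upkeep and transcription had 9 of 15 (0.10), 10 of 15 (0.03), 9 of 15 (0.03) and 11 of 15 (0.09) in the authors' deposited tables. These too had no called gene, and their medians lay nearer to 0 than those of the ribosomal proteins in HCD-weaned offspring.

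By rule, the genes of these lists with the most extreme values are named. In HCD-weaned males the highest were Tufm, the elongation factor that brings tRNA to the mitoribosome (0.63, SE 0.25), and Cars2 (0.62, SE 0.27), and the lowest Ppargc1b (-0.55, SE 0.32) and Guf1 (-0.45, SE 0.26), in the authors' deposited table. In HCD-weaned females they were Rbfa, a small-subunit assembly factor (0.87, SE 0.33), and Rnmtl1, an rRNA methyltransferase (0.81, SE 0.40), and Lars2 (-0.55, SE 0.34) and Iars2 (-0.49, SE 0.29), in the authors' deposited table. In RD-weaned males they were Mtrf1 (0.55, SE 0.43) and Polrmt, the mitochondrial RNA polymerase (0.50, SE 0.40), and Lars2, the leucyl-tRNA synthetase (-0.93, SE 0.29), and Ears2 (-0.77, SE 0.32), in the authors' deposited table. In RD-weaned females they were Esrra, an estrogen-related receptor (0.42, SE 0.21), and Pars2 (0.41, SE 0.27), and Mettl17 (-0.51, SE 0.24) and Ppargc1b (-0.35, SE 0.29), in the authors' deposited table. None of these 16 values had an adjusted p under 0.05.

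The most like lists were the cytosolic ribosomal proteins and the nuclear-encoded subunits of oxidative phosphorylation (OXPHOS), most of whose complexes contain the mitoribosome's products. Cytosolic ribosomal proteins had 68 of 75 positive (median 0.35), 63 of 75 (0.33), 3 of 68 (-0.42) and 23 of 73 (-0.04) in the authors' deposited tables. Nuclear OXPHOS genes had 73 of 75 (0.39), 70 of 75 (0.52), 11 of 70 (-0.25) and 59 of 74 (0.07) in the authors' deposited tables. Called genes in HCD-weaned females numbered 12 of 75 OXPHOS, 3 of 75 cytosolic ribosomal (Rps29, Rps28 and Rplp2) and 1 of 77 mitoribosomal genes, against the 1.52% of all genes, in the authors' deposited table. In HCD-weaned males Rps29 alone was called among these lists, against 0.163% of genes, and in RD-weaned offspring none was, in the authors' deposited tables. All 3 gene sets were mostly positive in HCD-weaned offspring and mostly negative in RD-weaned males, so the mitoribosomal genes shared this pattern with both other lists. Their transcripts are short too, with a median longest transcript of 1106 bases for the cytosolic ribosomal proteins and 1231 bases for the OXPHOS genes.

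**Figure D5:**
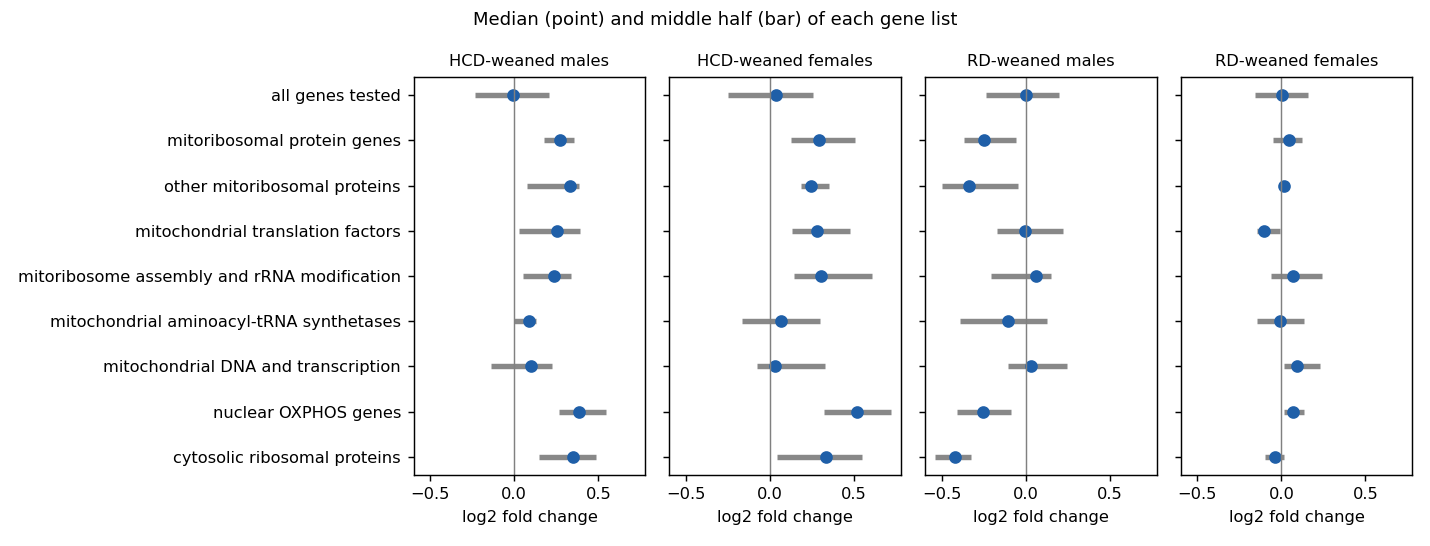
Rows are gene lists and panels are the 4 comparisons. Blue points are the median log2 fold change of HCD-dam over RD-dam offspring over the tested genes of a list in the authors' deposited tables, and grey bars span its lower to its upper quartile. Mitoribosomal, OXPHOS and cytosolic ribosomal genes lie right of 0 in HCD-weaned offspring and left of 0 in RD-weaned males, where translation and assembly factors lie near 0.

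Markers of cell types and neighbouring tissue also moved between the groups. In these whole-tissue samples, fewer cells of a type and less RNA per cell cannot be told apart. Hypothalamic neuron markers were found in all tables, and in HCD-weaned males 11 of 11 tested were negative with a median of -1.22 in the authors' deposited table. Of those, 5 were called (Sim1, Fezf1, Hcrt, Pmch and Oxt). The same list had a median of -0.33 in HCD-weaned females (7 of 8 tested negative) in the authors' deposited table. It had -0.14 in males weaned to RD (4 of 5) and -0.26 in females weaned to RD (10 of 10) in the authors' deposited tables. The 13 markers listed were not all tested in each table, so these medians cover different subsets. Agrp and Sim1 had means of 1.54 and 4.59 normalized counts in RD-weaned males in the authors' deposited table.

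Choroid plexus markers had medians of 0.56 (3 of 5 positive), 0.00 (3 of 5), -0.01 (2 of 4) and 0.68 (5 of 5, Kl called) in the same order in the authors' deposited tables. Thalamic markers had 0.06 (3 of 5 positive), 0.10 (3 of 5), 0.52 (5 of 5) and -0.30 (0 of 5) in the authors' deposited tables. Telencephalic markers had -0.38 (1 of 8 positive), 0.17 (7 of 8), 0.19 (6 of 8) and 0.50 (7 of 7) in the authors' deposited tables. General neuron markers had medians of 0.08, 0.19 (Tubb3 called), 0.58 (Snap25 called) and 0.34 in the authors' deposited tables. Astrocyte markers had -0.22, -0.40 (Aqp4 called), -0.13 and -0.20 in the authors' deposited tables. Microglia markers had -0.09, 0.005, 0.10 and 0.36, and oligodendrocyte markers 0.07, -0.15, -0.19 and 0.22, in the authors' deposited tables. Endothelial markers had -0.11, 0.14, 0.11 and -0.002 in the authors' deposited tables. The part of these shifts in the mitoribosomal values was not tested.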

How the data were processed

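Stranded poly(A) RNA of 25 hypothalami was sequenced, per the labels' protocols. The genome build was mm10 and the comparisons were made with DESeq (version not given in the sources used here), per the submitters' processing notes. The aligner, counting tool and annotation are likewise not given. The authors' own 4 comparison tables, out of 12 files, were used. Each gives a mean normalized count over libraries, a non-negative signal, per the file headers. It gives the fold change with its standard error in log2 units, per the file headers. The deposited Wald statistic is a score equal to their ratio. Every p-value and adjusted p-value is the authors' own. Of members, 5 in RD-weaned males (Mrps9, Mrpl44, Mrps18c, Mrps35 and Mrpl23) and 1 in RD-weaned females (Mrps25) have no adjusted p in the deposited tables, and their fold changes enter the sign patterns and the values across members but no median fold change. The other 8 files hold 48 library columns whose names match no label, and were not used. Depth per sample is therefore unknown here. No count test could be run, although it was the first choice had the columns been tied to samples.

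The members and lists were chosen with earlier results of these data known. Members named in the text were those called, the 4 highest and 4 lowest of each table, those past the test of a difference, those with 1 sign in all 4 tables and the 3 with the widest range. Of the other translation genes, those called and the 2 highest and 2 lowest of each table were named. The lists of cytosolic ribosomal and OXPHOS genes were taken by symbol pattern, and the latter also takes Atp5s and Atp5sl. To test a difference of 2 comparisons, it was set against its standard error (the 2 errors added in squares) under a normal distribution, and p-values were adjusted by Benjamini-Hochberg over the genes that have an adjusted p in each of the pair. The length and GC trend was a polynomial of degree 3 over all genes. Lengths and overlaps came from GENCODE M21 and promoters from RefSeq GRCm38.p6, by symbol. The test code was tested on simulated data with independent normal errors and no shrinkage. That run checks the code and not how well the tests suit these data. Python 3.11.15, numpy 2.4.6, scipy 1.17.1, pandas 2.3.3 and matplotlib 3.10.9 were used. Alternatives were an adjusted p under 0.10, p-values adjusted again above a mean of 10 or 100, the Wald statistic divided by its robust spread, centring, removal of the trend, subunits placed by structure, means for medians and turned signs.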

Additional observations from a re-analysis of the deposited data

How the results depend on the processing

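Of 67 alternatives over 16 results, 62 kept the direction and the side of the threshold, though some of these, named below, could not differ. Of the others, 2 turned the sign of a large minus small subunit difference near 0, to -0.01 in RD-weaned males with subunits placed by structure and to -0.00 in RD-weaned females with means. The remaining 3 concern the count of called members in HCD-weaned females, which was 1 (Mrps9) as reported. It was 0 with the Wald statistic divided by its robust spread, 0 with fold changes centred on their median and 0 with the length and GC trend removed, where 14953 in place of 15043 genes were tested. Over all genes those settings called 56, 196 and 61, against 229 as reported. The cause was not tested. Medians of the members kept their sign under all 16 alternatives, and that of HCD-weaned males was lowest, at 0.11, with the trend removed. The alternatives that could not differ were of 2 kinds. Limiting the members to mean counts of 100 or more dropped no tested member, so the medians and subunit differences stayed the same. Adjusting p-values again above a mean of 10 took in the same genes as the deposited adjustment, so the calls stayed the same.  With the sign of a table of RD-weaned offspring turned (that of males where both are of RD-weaned offspring), 0 members differed between comparisons. All genes called were then 14 between RD-weaned females and males, 4 between males and 186 between females of the 2 weaning diets. At an unadjusted p under 0.05 the members were 1, 2 and 5, against 5.67%, 5.59% and 14.6% of genes, and the lowest adjusted p of a member was 0.0529 (Mrps9, between females). No paired analysis was possible because the library columns carry running numbers that match no label. For the same reason leaving out each replicate, the replicate block, DESeq2 size factors against TMM and a fit without a filter on low counts were not run. Depth per sample is unknown here, so what depth limits could not be stated beyond the deposited standard errors.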
